A study of Homo sapiens with 6 samples.

Results

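Intestinal stem cell marker genes were examined in SW480, a human colorectal cancer cell line, with and without knockdown of MORC2. MORC2 is a chromatin-associated ATPase known for its part in gene silencing. The 10 genes LGR5, ASCL2, OLFM4, SMOC2, SOX9, EPHB2, EPHB3, PROM1, CD44 and MSI1 were chosen by symbol as markers of this cell type, out of 56303 genes in the count table, and all 10 symbols were found there. These genes and the lists used below were chosen with earlier results of these data known, so their called shares are only descriptive. Each group had 3 libraries of mRNA, numbered 1 to 3. The shCtrl cells (genotype WT) carried a nonsilencing short hairpin RNA, and the shMORC2 cells (genotype MORC2 knockdown) carried a hairpin against MORC2. Both came from lentiviral infection and puromycin selection of stable lines, which the methods call clonal, and both were grown in the same serum-containing medium. A single hairpin and a single control line were compared, so a difference between the 2 lines cannot be told apart from an effect of the knockdown. The study describes the libraries of a group as independent replicate experiments. Neither the labels nor the methods state whether each came from its own culture, so p-values measure the spread between these libraries, which may be technical.

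Stem cells at the base of the intestinal crypt divide continuously and give rise to absorptive enterocytes and to the secretory goblet, Paneth, enteroendocrine and tuft cells. Their state is held by Wnt signals. R-spondin ligands bind LGR receptors and thereby keep the Frizzled receptors at the surface, and β-catenin with TCF/LEF factors switches on targets that include several of the markers described here. In colorectal cancer the same pathway is commonly active through loss of APC, and surface proteins such as CD44 and PROM1 (CD133) have been used to sort cells that start tumors.

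The libraries held 42092664 to 43434425 counts. MORC2 itself was lower in the shMORC2 libraries, at 35.0, 29.3 and 27.2 CPM (counts scaled to a common library size) against 46.1, 46.4 and 48.8 CPM in shCtrl. It was reduced to 64.7% of the control mean (log2 change -0.63 ± 0.10 SE, adjusted p = 0.000216 in edgeR). The colorectal epithelial identity of the cells was checked against 10 markers, of which KRT8 was the most abundant per length, with 15380 ± 2261 CPM in shCtrl against 15071 ± 2521 CPM for shMORC2 (SD, n = 3 each). EPCAM stood at 478 ± 3.47 and 515 ± 21.4 CPM, whereas LGALS4 had at most 18 counts in any library. Among markers of other cell types, PTPRC had at most 6 counts in a library, CD3E at most 3, and DCN and CDH5 at most 2. Others of these markers were well detected, with 1297 to 4222 counts per library for CD68, 576 to 860 for PECAM1, 355 to 458 for COL1A1, 330 to 514 for LUM and 86 to 153 for VWF.

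Of the 10 marker genes, 9 had enough counts to be tested. By the quasi-likelihood test of edgeR, with calls at adjusted p values under 0.05, 4 rose in shMORC2 (MSI1, SMOC2, CD44 and PROM1), 2 fell (LGR5 and SOX9) and 3 did not pass (ASCL2, EPHB2 and EPHB3). MSI1 passed the filter on low counts through the shMORC2 group alone, so that it had to differ. It is included in, and adds to, each count of markers in this paragraph, but it cannot serve as support. Without MSI1 the called markers were SMOC2, CD44 and PROM1 (higher) and LGR5 and SOX9 (lower). Of these, only SMOC2 and LGR5 reached a log2 size of 1. The same threshold called 39.5% of all 21005 genes tested, 19.9% as higher and 19.6% as lower. With the replicate number as a block the same 6 markers were called, among 49.0% of all genes. A fitted log2 change of at least 1 in size was also reached by 3 of them (MSI1, SMOC2 and LGR5) and by 7.75% of all genes. The 2 groups did not overlap for 6 of the 9 genes, and for 50.2% of all genes. The median log2 fold change was 0.15 over the 9 genes and -0.01 over all genes. Calls were widespread in these libraries, and the markers went in both directions.

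**Figure D1:**
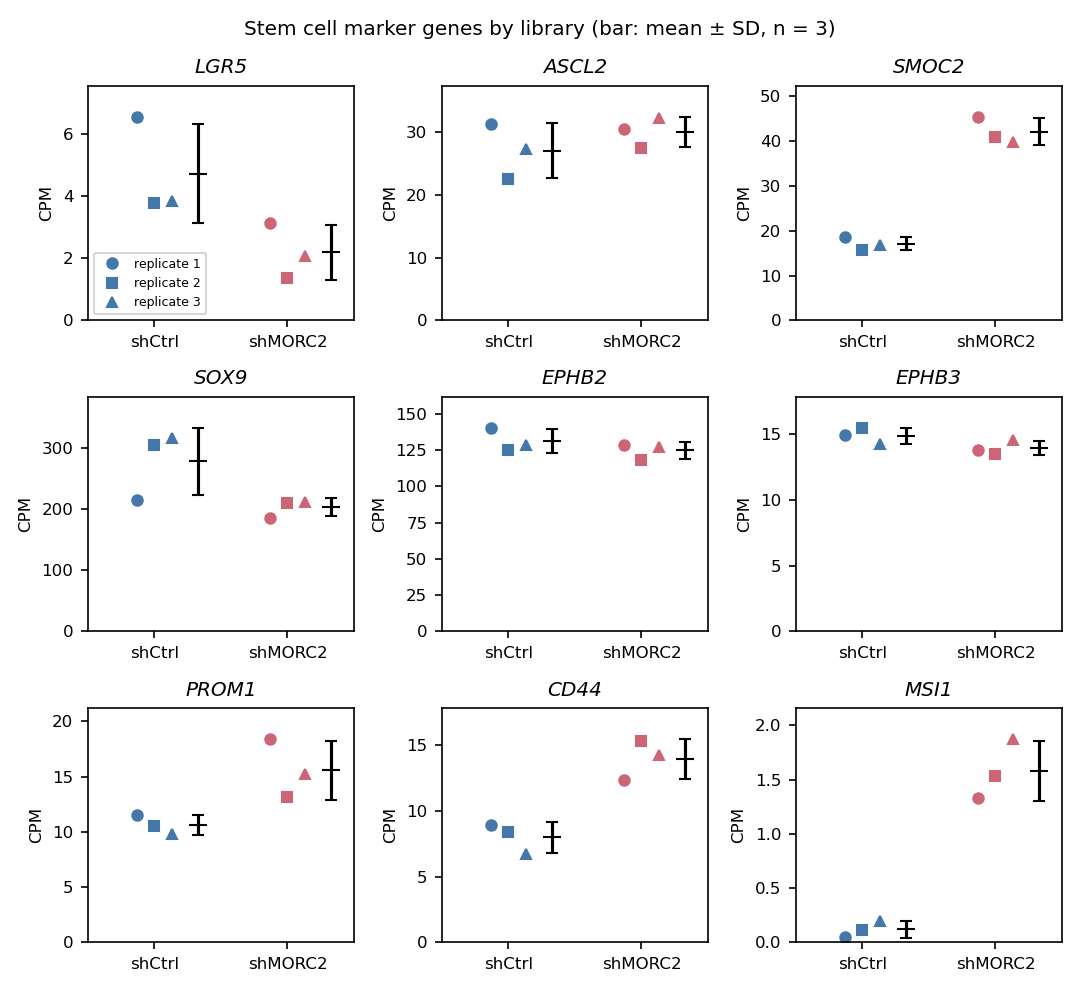
CPM of the 9 detected marker genes in each of the 6 libraries, with the group mean ± SD (n = 3) as a black bar and a marker shape for each replicate number. SMOC2, PROM1, CD44 and MSI1 were higher in all 3 shMORC2 libraries, LGR5 and SOX9 were lower, and the groups overlapped for ASCL2, EPHB2 and EPHB3.

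LGR5, the R-spondin receptor that marks cycling stem cells at the crypt base (chromosome 12, 71439770 to 71586310, plus strand, GRCh38), was at 6.57, 3.78 and 3.84 CPM in shCtrl replicates 1, 2 and 3. In shMORC2 it was at 3.13, 1.37 and 2.09 CPM. Replicate 1 was the highest library in both groups, and the groups did not overlap, with a narrow gap between 3.78 and 3.13 CPM. LGR5 fell from 4.73 ± 1.59 to 2.20 ± 0.887 CPM (SD, n = 3 each), or 46.4% of the control level (log2 change -1.10 ± 0.28 SE, adjusted p = 0.00647 in edgeR). These values rested on 606 counts in all shCtrl libraries and 285 in all shMORC2 libraries. The log2 fold change was -0.79 without shCtrl replicate 1 and -1.45 without shMORC2 replicate 1, and LGR5 was called in each of the 6 fits with 1 library left out. An antisense gene, ENSG00000288530, shares exonic sequence with LGR5, and whether counting used the strand was not stated.

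The paralogs and ligands of this receptor were described from a list. LGR6, a paralog of LGR5, was more abundant per length than LGR5 in these cells and also fell, from 47.4 ± 5.99 to 35.7 ± 2.19 CPM (log2 change -0.41 ± 0.10 SE, adjusted p = 0.00498 in edgeR). LGR4, the paralog found throughout the crypt, stood at 12.0 ± 0.793 CPM in shCtrl against 11.6 ± 0.358 CPM with the knockdown, and was not called (edgeR adjusted p = 0.700). The R-spondin genes RSPO1, RSPO2 and RSPO4 had no count in any library, and RSPO3 had 1 count in a single shCtrl library.

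Of the 2 transcription factors, SOX9 fell and ASCL2 was not called. SOX9 (chromosome 17, 72121020 to 72126420, plus strand), an HMG-box factor of the crypt base and a Wnt target, was at 215, 304 and 316 CPM in shCtrl. In the shMORC2 libraries it was at 186, 210.4 and 212 CPM. The gap between the groups was narrow, and shCtrl replicate 1 stood far below the other shCtrl libraries and just above the highest shMORC2 library. SOX9 fell from 279 ± 55.1 to 203 ± 14.5 CPM (SD, n = 3 each), to 72.9% of control (log2 change -0.46 ± 0.12 SE, adjusted p = 0.00904 in edgeR). Of all genes tested, 33.8% had a log2 change at least as large. Without shCtrl replicate 1 that of SOX9 was -0.61, and without shCtrl replicate 3 it was -0.35 with an edgeR adjusted p of 0.0485.

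ASCL2 (chromosome 11, 2268495 to 2270952, minus strand), a basic helix-loop-helix factor that maintains the LGR5-positive stem cell state, was at 31.3, 22.5 and 27.3 CPM in shCtrl. In shMORC2 its level was 30.5, 27.6 and 32.3 CPM, within or just above the shCtrl range. ASCL2 did not pass the test, at a log2 change of 0.15 ± 0.11 SE (adjusted p = 0.298 in edgeR), and its 95% interval ran from -0.09 to 0.40. That of LGR5 ran from -1.70 to -0.51, below it throughout. The difference between the 2 genes was not tested.

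Of the secreted proteins, SMOC2 was raised and OLFM4 was not detected. SMOC2 (chromosome 6, 168441151 to 168673445, plus strand), a matricellular calcium-binding protein found in the LGR5 stem cell signature, was at 18.7, 15.8 and 16.8 CPM in shCtrl. In shMORC2 it was at 45.5, 41.0 and 39.9 CPM, and every shMORC2 library stood more than 20 CPM above every shCtrl library. SMOC2 rose from 17.1 ± 1.45 to 42.1 ± 2.99 CPM (SD, n = 3 each), 2.46-fold (log2 change 1.30 ± 0.09 SE, adjusted p = 6.14e-07 in edgeR). A change of this size or larger was found in 4.56% of all genes tested. OLFM4 (chromosome 13, 53028759 to 53052057, plus strand), a glycoprotein abundant in human crypt base cells, had no count in any of the 6 libraries. At this depth 3 counts correspond to 0.0676 to 0.0729 CPM, so that a level under that floor was not detectable. The floor covers counting error only.

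A promoter entry was found in the RefSeq table (GRCh38.p14) for 6 of the 10 genes, OLFM4, SMOC2, EPHB2, EPHB3, PROM1 and CD44. The bases upstream of the gene start in the deposited table are shown for SMOC2 (chr6:168440934-168441150, plus strand), the gene with the largest change among these 6, and for OLFM4 (chr13:53028563-53028758, plus strand), the gene without counts. Capitals mark CG dinucleotides, the sites of DNA methylation in mammals.
SMOC2: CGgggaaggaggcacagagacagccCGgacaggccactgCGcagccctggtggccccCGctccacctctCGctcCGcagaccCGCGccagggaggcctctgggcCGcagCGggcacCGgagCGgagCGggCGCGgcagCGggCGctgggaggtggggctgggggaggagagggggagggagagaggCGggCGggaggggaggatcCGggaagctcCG
OLFM4: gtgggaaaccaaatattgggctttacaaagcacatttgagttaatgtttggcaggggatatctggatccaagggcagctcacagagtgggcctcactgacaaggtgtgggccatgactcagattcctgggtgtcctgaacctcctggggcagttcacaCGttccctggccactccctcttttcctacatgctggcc

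In the 250 bases before the RefSeq start, SMOC2 had 24 CG dinucleotides and OLFM4 had 1. Among 27305 promoters of that length, 23.3% had at least 24 and 93.6% had at least 1. The other entries held 42 (EPHB2), 21 (EPHB3), 15 (CD44) and 13 (PROM1, at the most upstream of 4 starts). The windows of CD44 and PROM1 lay wholly inside these genes as counted, because the deposited table places their starts further upstream. The TCF/LEF core was searched on both strands as the word CTTTGAA, also as the word CTTTGAT, then as the word CTTTGTA and lastly as the word CTTTGTT, and at least 1 of these words was found in 12.1% of all promoters. OLFM4 held CTTTGTA 1 time, on the minus strand, and the other 5 entries held none of the 4 words. The E-box CAGCTG was found in EPHB3, where 13.8% of all promoters held it. The E-box CACCTG was found in EPHB2 and PROM1, where 17.5% of all promoters held it. These are matches of letters in a short window and were not tested for binding.

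The Eph receptors EPHB2 and EPHB3, Wnt targets that position cells along the crypt axis, were not called. EPHB2 (chromosome 1, 22710839 to 22921500, plus strand) was at 140.5, 125 and 129 CPM in shCtrl and at 129, 118 and 127 CPM in shMORC2. EPHB3 (chromosome 3, 184561784 to 184582409, plus strand) was at 14.9, 15.5 and 14.2 CPM in shCtrl and at 13.8, 13.5 and 14.5 CPM in shMORC2. The groups overlapped for both. Their log2 fold changes were -0.07 (95% interval -0.24 to 0.09, edgeR adjusted p = 0.465) and -0.09 (95% interval -0.29 to 0.11, edgeR adjusted p = 0.452). These intervals hold small changes of either sign and leave out changes of the size seen for LGR5 or SMOC2.

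Other receptors and ligands of the Eph family were in the same list as the LGR paralogs. EPHB6, a family member without kinase activity, rose from 66.5 ± 5.58 to 129 ± 24.3 CPM (log2 change 0.95 ± 0.12 SE, adjusted p = 5.24e-05 in edgeR). EPHB4, known mainly from blood vessels, rose from 28.5 ± 2.27 to 37.9 ± 2.27 CPM (log2 change 0.41 ± 0.09 SE, adjusted p = 0.00230 in edgeR). EFNB3, a membrane-bound ephrin ligand, rose from 1.87 ± 0.313 to 5.53 ± 0.470 CPM (log2 change 1.56 ± 0.17 SE, adjusted p = 1.34e-05 in edgeR). EFNB1 and EFNB2, the more abundant ligands at 92.4 ± 4.35 and 197 ± 6.26 CPM in shCtrl, were not called (edgeR adjusted p = 0.617 and 0.582). In all, 7 of the 12 listed paralogs and ligands were tested, of which 3 rose, 1 fell and 3 did not pass, with a median log2 change of 0.08. The called share was 57.1%, where 39.5% of all genes tested were called.

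The surface markers PROM1 and CD44, used for colorectal cancer stem cells, were both higher. PROM1 (chromosome 4, 15963076 to 16084378, minus strand), the pentaspan membrane protein CD133, was at 11.5, 10.5 and 9.80 CPM in shCtrl and at 18.4, 13.1 and 15.2 CPM in shMORC2. The groups did not overlap, and the shMORC2 libraries varied more. PROM1 rose from 10.6 ± 0.879 to 15.6 ± 2.67 CPM (SD, n = 3 each), 1.47-fold (log2 change 0.55 ± 0.13 SE, adjusted p = 0.00366 in edgeR). Changes of at least this size were fitted for 26.3% of all genes tested. The gene FGFBP2 on the same strand shares exonic sequence with PROM1 and had 15 to 32 counts per library.

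CD44 (chromosome 11, 35138870 to 35232402, plus strand), the hyaluronan receptor, was at 8.92, 8.37 and 6.69 CPM in shCtrl. Its level in shMORC2 was 12.3, 15.3 and 14.2 CPM, above every shCtrl library. CD44 rose from 7.99 ± 1.16 to 14.0 ± 1.53 CPM (SD, n = 3 each), 1.75-fold (log2 change 0.80 ± 0.13 SE, adjusted p = 0.000310 in edgeR). A log2 change as large or larger was fitted for 13.9% of all genes tested. CD44-AS1 and CD44-DT share exonic sequence with it on the other strand. CD44 is known for its variable exons, but neither CD44 nor any of the other 9 genes was among the 1181 genes of the 1449 events in the deposited splicing table.

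MSI1 (chromosome 12, 120341330 to 120369180, minus strand), the RNA-binding protein Musashi-1 of neural and intestinal stem cells, showed the largest difference of the 9 genes. Its counts were 2, 5 and 8 with the control hairpin and 59, 64 and 80 with the MORC2 hairpin, so the groups did not overlap. Its level rose from 0.119 ± 0.0744 to 1.58 ± 0.277 CPM (SD, n = 3 each), and the test gave a log2 change of 3.71 ± 0.40 SE (adjusted p = 1.47e-05 in edgeR). A fitted change of at least this size was found for 0.224% of all genes tested. None of its shCtrl libraries and all of its shMORC2 libraries were above that filter, so a gene of this level that entered the test had to differ. The 95% interval of 2.85 to 4.57 and the 15 counts summed over shCtrl show how coarsely the size of the change is known. MSI2, a paralog that was more abundant per length, was not called (log2 change 0.10 ± 0.08 SE, adjusted p = 0.332 in edgeR).

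**Figure D2:**
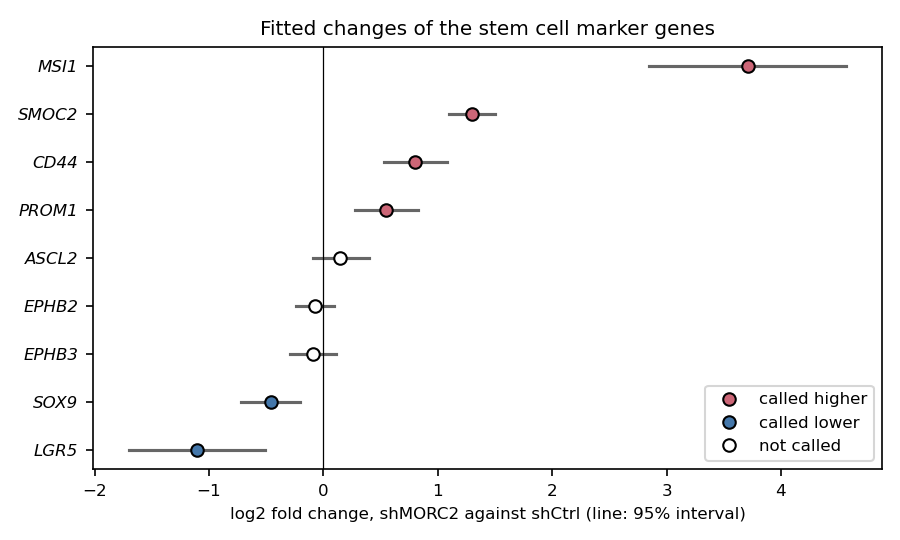
Fitted log2 fold changes (shMORC2 against shCtrl, edgeR) of the 9 tested marker genes, each with its 95% interval. Filled points passed an adjusted p under 0.05, red when higher and blue when lower. MSI1 at 3.71 and LGR5 at -1.10 mark the ends, and the intervals of ASCL2, EPHB2 and EPHB3 cross 0.

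Levels of different genes can be compared only per exon length, and for this the deposited RPKM values (counts per kilobase of exon, scaled to the library total) were used. In shCtrl the order was SOX9 (70.7 ± 12.7 RPKM), ASCL2 (14.7 ± 2.57), EPHB2 (10.5 ± 0.852), SMOC2 (4.26 ± 0.434), EPHB3 (3.29 ± 0.193), PROM1 (1.43 ± 0.153), LGR5 (0.907 ± 0.325), CD44 (0.798 ± 0.134), MSI1 (0.0384 ± 0.0232) and OLFM4 (0). LGR5 and CD44 overlapped in this order, and PROM1 and LGR5 were barely apart, with 1.29 RPKM in the lowest library of PROM1 and 1.28 RPKM in the highest of LGR5. The ranges of all other neighbours were apart. In shMORC2 SMOC2 had moved to the third place, at 10.4 ± 0.963 RPKM, and overlapped with EPHB2 at 9.93 ± 0.622 RPKM. LGR5, at 0.419 ± 0.178 RPKM, stood ninth and overlapped with MSI1 at 0.509 ± 0.0826 RPKM. SOX9 and ASCL2 held the top of the order and OLFM4 the bottom in both groups.

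**Figure D3:**
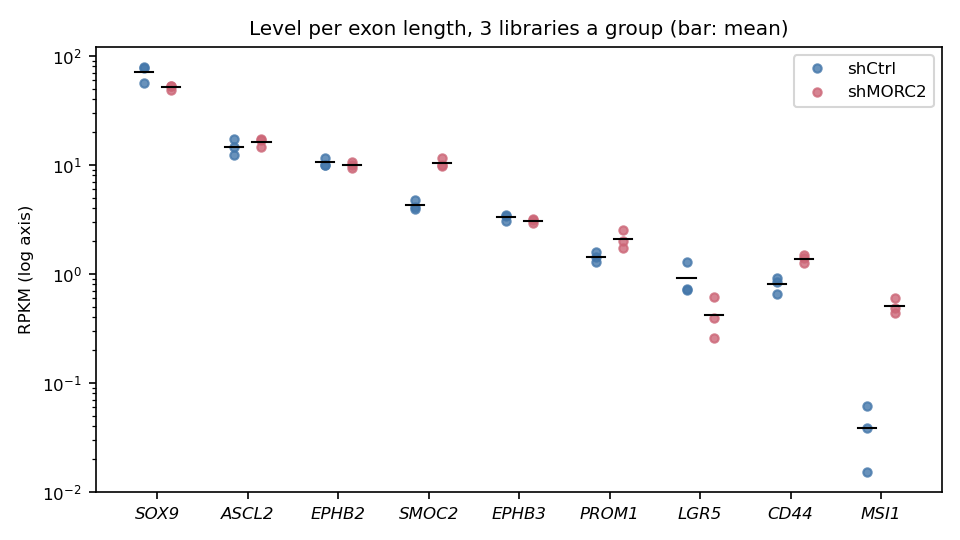
Deposited RPKM (log axis) of the 9 detected marker genes in 3 shCtrl and 3 shMORC2 libraries, ordered by the shCtrl mean, with the group means as bars; OLFM4, at 0, is left out. SOX9 was highest in both groups (70.7 and 51.4 RPKM), and MSI1 in shCtrl was lowest (0.0384 RPKM).

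Other genes of crypt stem cells were described from a list of 22, of which 19 were tested, 3 rose, 7 fell and 9 did not pass. The called share was 52.6%, where that of all genes was 39.5%. The median log2 fold change was 0.02. RNF43, a ubiquitin ligase that removes Frizzled receptors, fell from 80.9 ± 6.65 to 56.6 ± 5.33 CPM (log2 change -0.51 ± 0.09 SE, adjusted p = 0.000615 in edgeR). Its relative ZNRF3 fell from 71.3 ± 1.60 to 59.5 ± 2.23 CPM (log2 change -0.26 ± 0.07 SE, adjusted p = 0.0118 in edgeR). AXIN2, a scaffold of the complex that degrades β-catenin and a Wnt target, rose from 321 ± 38.2 to 398 ± 16.6 CPM (log2 change 0.31 ± 0.09 SE, adjusted p = 0.0133 in edgeR). NKD1, an inhibitor of Wnt signalling, was not called (log2 change 0.12, adjusted p = 0.219 in edgeR). RNF43, ZNRF3, AXIN2, NKD1 and BMI1 were singled out after their values were seen, as were CXCR4 and ALCAM.

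The largest called differences in that list were in SLC14A1, RGMB, SLC12A2 and TNFRSF19. SLC14A1, a urea transporter, rose from 3.90 ± 1.18 to 7.01 ± 0.825 CPM (log2 change 0.85 ± 0.19 SE, adjusted p = 0.00315 in edgeR). RGMB, a co-receptor for bone morphogenetic proteins, fell from 7.80 ± 0.158 to 4.38 ± 0.406 CPM (log2 change -0.83 ± 0.12 SE, adjusted p = 0.000179 in edgeR). SLC12A2, a sodium-potassium-chloride cotransporter, fell from 184 ± 29.9 to 120.4 ± 21.4 CPM (log2 change -0.61 ± 0.13 SE, adjusted p = 0.00213 in edgeR). TNFRSF19 (TROY), a receptor and Wnt target of LGR5-positive cells, gave a log2 change of 0.60 ± 0.17 SE (adjusted p = 0.0144 in edgeR), and its groups overlapped. This call was lost without shCtrl replicate 3 (edgeR adjusted p = 0.0578) and without shMORC2 replicate 3 (edgeR adjusted p = 0.0623). BMI1, a Polycomb protein linked to reserve stem cells, fell (log2 change -0.46 ± 0.10 SE, adjusted p = 0.00336 in edgeR), and HOPX, another reserve marker, had no count in any library. COMMD3-BMI1 shares exonic sequence with BMI1 on the same strand. Without shCtrl replicate 3 the list had 5 called genes in place of 10.

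Of 12 other markers used for cancer stem cells, 11 were tested, 3 rose, 3 fell and 5 did not pass, with a median log2 change of 0.03. That is a called share of 54.5%, against 39.5% over all genes tested. CD24, a surface sialoglycoprotein often combined with CD44 in sorting, rose from 36.6 ± 3.06 to 87.1 ± 1.84 CPM (log2 change 1.25 ± 0.08 SE, adjusted p = 3.31e-07 in edgeR). SOX2, a pluripotency factor, rose from 73.6 ± 19.5 to 114 ± 15.6 CPM (log2 change 0.63 ± 0.15 SE, adjusted p = 0.00501 in edgeR). MYC, a Wnt target and growth regulator, fell from 417 ± 40.7 to 213 ± 14.7 CPM (log2 change -0.97 ± 0.09 SE, adjusted p = 3.47e-06 in edgeR). CXCR4, a chemokine receptor with a mean of 39.3 counts, rose from 0.531 ± 0.277 to 1.32 ± 0.222 CPM (log2 change 1.31 ± 0.34 SE, adjusted p = 0.00751 in edgeR). KLF4, a factor of differentiating epithelium as well as of reprogramming, fell from 9.63 ± 0.538 to 4.43 ± 0.582 CPM (log2 change -1.12 ± 0.13 SE, adjusted p = 2.37e-05 in edgeR). ALCAM, an adhesion molecule, fell from 30.0 ± 1.51 to 23.9 ± 3.25 CPM (log2 change -0.33 ± 0.10 SE, adjusted p = 0.0207 in edgeR). The surface proteins EPCAM and ITGA6 of this list were not called (edgeR adjusted p = 0.251 and 0.858).

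Markers of differentiated cells were compared in the same way. Of 16 enterocyte markers, 8 were tested, 1 rose and 2 fell, a share of 37.5% against 39.5% of all genes, and the median log2 change was -0.09. CDHR5, a protocadherin of the brush border, fell from 2.81 ± 0.220 to 0.517 ± 0.156 CPM (log2 change -2.44 ± 0.25 SE, adjusted p = 8.69e-06 in edgeR). FABP1, a fatty acid binding protein, fell from 7.00 ± 0.730 to 3.05 ± 0.474 CPM (log2 change -1.20 ± 0.15 SE, adjusted p = 5.20e-05 in edgeR). KRT20, a keratin of the upper crypt and surface, rose from 9.49 ± 1.31 to 15.9 ± 4.08 CPM (log2 change 0.75 ± 0.16 SE, adjusted p = 0.00305 in edgeR).

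Of 34 secretory markers, 15 were tested, 6 rose, 1 fell and 8 did not pass, and the median log2 change was 0.08. The called share of 46.7% stood beside 39.5% of all genes tested, of which 19.9% were higher and 19.6% lower. The enteroendocrine genes CHGB, a granin of secretory granules, and SYP, a vesicle protein, rose with log2 fold changes of 1.58 (± 0.11 SE, adjusted p = 7.34e-07 in edgeR) and 1.11 (± 0.14 SE, adjusted p = 4.05e-05 in edgeR). The other 8 of the 10 enteroendocrine markers had too few counts to be tested. Among them CHGA had 14 counts summed over shCtrl and 8 over shMORC2, and PYY had 10 and 3. The lineage factors NEUROG3, NEUROD1 and INSM1 had at most 6 counts in any library. The goblet genes TFF3, a trefoil peptide, and AGR2, a disulfide isomerase, rose with log2 fold changes of 0.63 (± 0.09 SE, adjusted p = 0.000161 in edgeR) and 0.84 (± 0.14 SE, adjusted p = 0.000479 in edgeR), and the secretory lineage factor ATOH1 had no count. The goblet genes MUC2 (log2 change 0.48, adjusted p = 0.0631 in edgeR) and SPDEF (-0.59, adjusted p = 0.212) were tested and not called. Of the Paneth list, PLA2G2A, a secreted phospholipase, rose (log2 change 1.03 ± 0.22 SE, adjusted p = 0.00292 in edgeR). MMP7, a matrix metalloproteinase, fell (log2 change -1.54 ± 0.20 SE, adjusted p = 5.79e-05 in edgeR). The tuft cell kinase DCLK1 rose from 0.747 ± 0.0292 to 2.40 ± 0.406 CPM (log2 change 1.68 ± 0.22 SE, adjusted p = 7.14e-05 in edgeR). The other 5 tuft genes tested were not called, and most of them leaned the other way. Their log2 changes were -0.49 (POU2F3), -0.34 (SH2D6), -0.31 (AVIL), -0.31 (GFI1B) and 0.01 (PTGS1). The median of the tuft list was -0.31. GFI1B was lower in every shMORC2 library, while the groups did not overlap for 50.2% of all genes. For SH2D6, shCtrl replicate 3 and shMORC2 replicate 1 were level at 1.24 CPM.

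**Figure D4:**
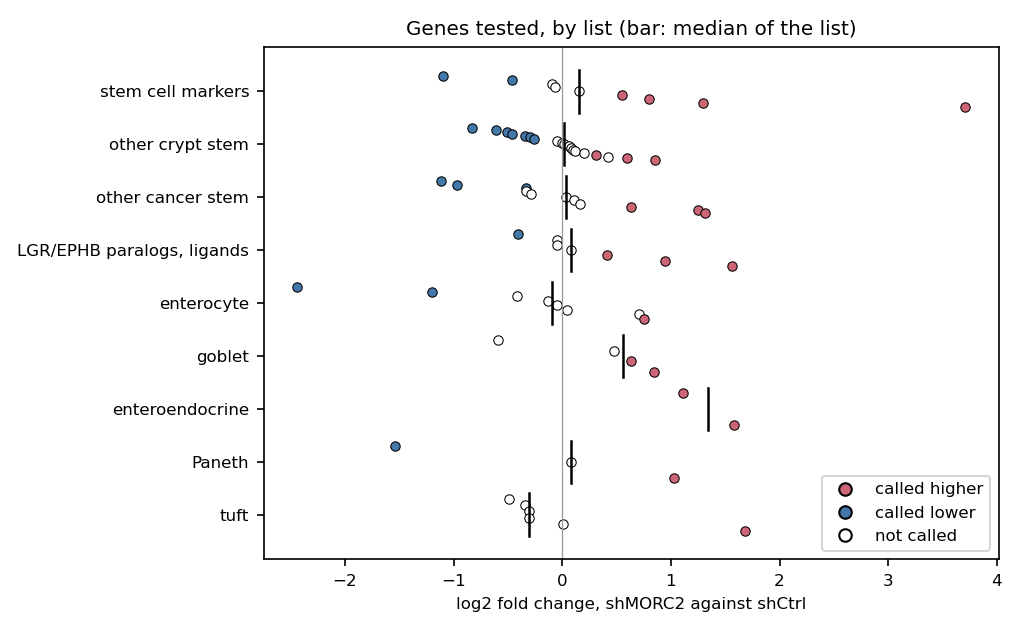
Fitted log2 fold changes of every tested gene in the stem cell, cancer stem cell, receptor and differentiation lists, with the median of each list as a bar. Red and blue points were the called genes, higher and lower. The 19 other crypt stem genes held 3 red and 7 blue points, and the 15 tested secretory genes (the goblet, enteroendocrine, Paneth and tuft lists) held 6 red and 1 blue.

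In RNA from whole cultures, fewer cells of a type and less RNA per cell cannot be told apart, and this holds for each gene named here. CD44, PROM1 and SMOC2 are also made by cells outside the epithelium, so the markers of such cells are given beside them. The summed level of 7 fibroblast markers was 20.0 to 21.0 CPM in shCtrl and 22.8 to 25.1 CPM in shMORC2, and 0 of the 3 tested were called at an adjusted p under 0.05 in edgeR, with 1 (LUM) at an unadjusted p under 0.05. The same threshold called 39.5% of all genes tested. LUM, a matrix proteoglycan and the most abundant of the fibroblast markers per length, had a log2 change of 0.29 (adjusted p = 0.0778 in edgeR). DESeq2 and limma called 0 of this list, and edgeR with the replicate block or without shCtrl replicate 1 called LUM. EdgeR without a filter on low counts called COL3A1, which had no count in shMORC2. That of 8 blood and endothelial markers was 49.8 to 55.5 CPM and 72.5 to 123 CPM. In this list 4 were tested and 2 rose, CD68 (log2 change 1.27 ± 0.20 SE, adjusted p = 0.000296 in edgeR), a lysosomal protein, and VWF (log2 change 0.54 ± 0.17 SE, adjusted p = 0.0238 in edgeR). CD68 set most of that sum. The VWF call was lost without shCtrl replicate 1 (adjusted p = 0.0580 in edgeR), shCtrl replicate 2 (0.0856) or shMORC2 replicate 2 (0.0548), and also without shMORC2 replicate 3. With the replicate block PECAM1 was called as well (log2 change 0.29, adjusted p = 0.00587 in edgeR). All libraries were labelled as SW480, a cell line, and no other cell type is named in the labels. These markers were thus read in the line itself, and their relation to the changes of CD44, PROM1 and SMOC2 was not tested. Of the colorectal epithelial markers, 9 were tested, CDX2 and KRT20 rose and CLDN7 fell. That is a called share of 33.3%, against 39.5% of all genes tested and 49.0% with the replicate block. With the replicate block CDH1 (log2 change 0.20, adjusted p = 0.00613 in edgeR) and KRT19 (-0.27, adjusted p = 0.000103) were also called. CDX2, the intestinal identity factor, gave a log2 change of 0.47 ± 0.14 SE (adjusted p = 0.0158 in edgeR), and was called in 8 of 14 alternatives. Its call was lost without shCtrl replicate 2 (adjusted p = 0.0648 in edgeR), shCtrl replicate 3 (0.0576) or shMORC2 replicate 3 (0.0968). CLDN7, a tight junction protein, fell from 2.57 ± 0.383 to 1.39 ± 0.271 CPM (log2 change -0.89 ± 0.21 SE, adjusted p = 0.00451 in edgeR).

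**Figure D5:**
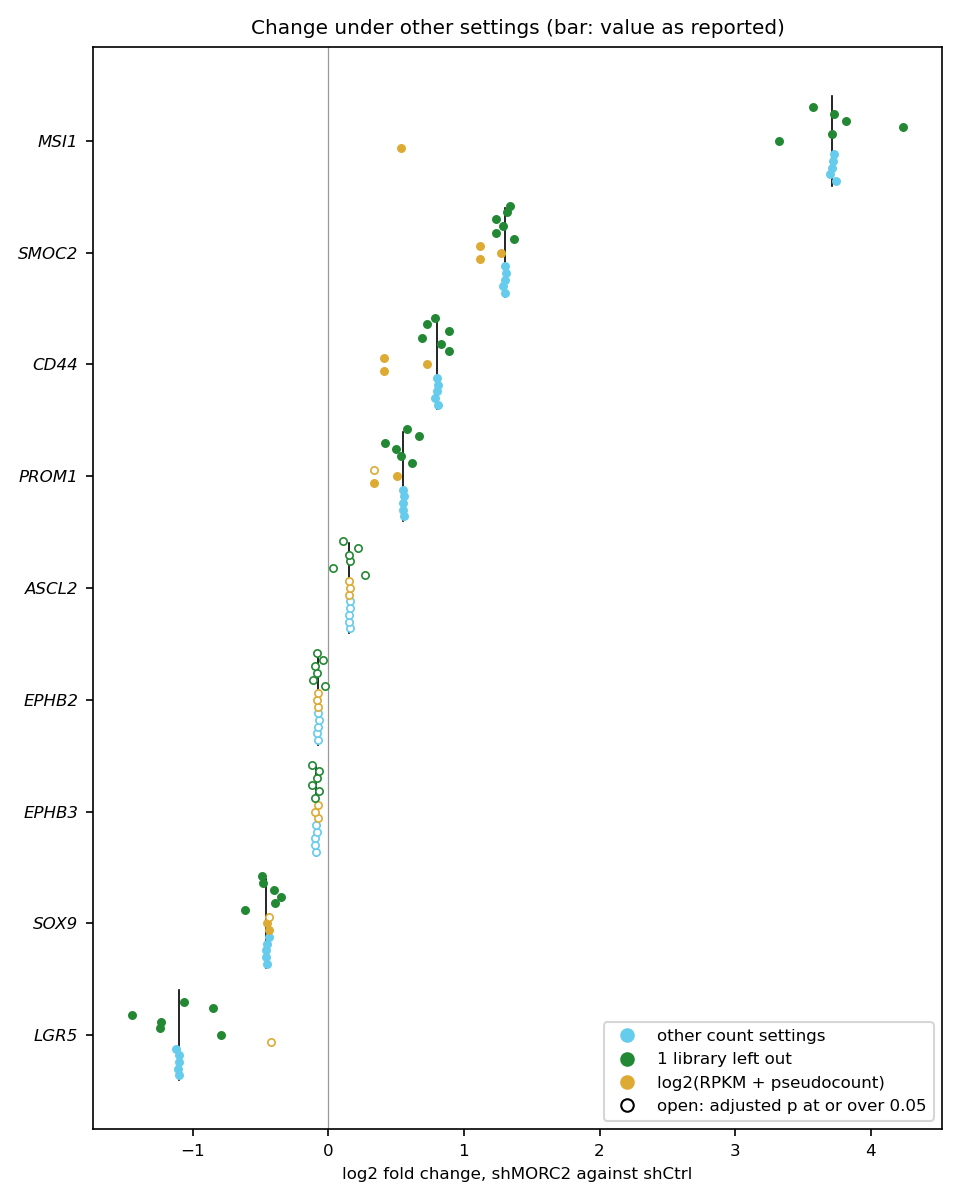
Log2 fold changes of the 9 marker genes under up to 14 other settings each (other count tests and filters, 1 library left out, and log2 of RPKM with a pseudocount), with the reported value as a bar. Open points did not pass an adjusted p under 0.05. No gene changed sign under these settings, and LGR5, SOX9 and PROM1 each lost their call in 1 of them.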

How the data were processed

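mRNA from 3 shCtrl and 3 shMORC2 SW480 samples was sequenced from stranded libraries with molecular identifiers. The values deposited were unnormalized counts for each symbol, in the featureCounts layout, and RPKM values made by the authors, which equal those counts divided by exon length and library total. The submitters' processing notes name Trimmomatic 0.36, STAR 2.5.3a, featureCounts, Subread 1.5.1, edgeR 3.12.1 and GRCh38. Strand setting and collapsing of identifiers were not given in the sources used here. All 10 genes overlapped their GENCODE entry on GRCh38. The deposited rMATS table calls its groups 1 and 2 without a key, so it was searched for gene names only. Its authors' p-values and differences were not used.

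The main test was the quasi-likelihood F test of edgeR 4.0.16 (R 4.3.3) after filterByExpr and TMM scaling, with group as the only term, and with Benjamini-Hochberg adjustment over 21005 genes. The SE is the log2 fold change divided by the square root of F, and the 95% interval uses the test's degrees of freedom. CPM used TMM-scaled library sizes. The scripts were tested on simulated data. Genes named were the 10 markers, MORC2, and in each list the 4 largest called changes whose mean was 50 counts or more, with the most abundant gene of the fibroblast, blood and epithelial lists. Any other gene was named after its values were seen. The marker genes and lists were chosen with earlier results of these data known.

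The labels do not say what a replicate number stands for. Equally numbered libraries weakly shared deviations from the means of their groups (correlations 0.215, 0.111 and 0.102), and unequal numbers were not compared. On these values alone they were taken as pairs in the fit with the replicate block, while the main test did not use pairs. As alternatives, the tests were repeated in DESeq2 1.42.0, with unscaled library sizes, under other filters, with the replicate block, in limma 3.58.1 on log2(RPKM + 1) and log2(RPKM + 0.1), without each library in turn, and for a log2 change of at least 1. The gene tables had 0 columns from outside the series.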

Additional observations from a re-analysis of the deposited data

How the results depend on the processing

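The 6 calls among the marker genes, 4 higher and 2 lower, were the same genes in edgeR without TMM, in DESeq2, under both other count filters, with the replicate block and in each of the 6 fits with 1 library left out (6 calls in every fit). MSI1, counted among these 6, passed the main filter through the shMORC2 group alone, so its calls after that filter give no support. With the replicate block 10287 genes, or 49.0%, were called, and the block changed no call of a marker gene. In the lists it added SP5, MUC2, CDH1, KRT19, PECAM1 and LUM to the calls (11 crypt stem genes, 8 secretory genes), and it removed none. LUM (adjusted p 0.0306) was also called without shCtrl replicate 1. The MORC2 log2 fold change ran from -0.74 to -0.55. Limma on log2(RPKM + 1) without a filter on low values called 3 marker genes (SMOC2, CD44 and MSI1), 4 crypt stem genes and 5454 genes in all. There LGR5 (-0.42, adjusted p 0.132), SOX9 (-0.44, adjusted p 0.0903) and PROM1 (0.34, adjusted p 0.108) lost their calls. This fit tested 36613 genes, and LGR5 stood under 1 RPKM in most libraries. MSI1, lower still in shCtrl, kept its call (0.54, limma adjusted p 0.0035). With a mean RPKM of at least 1 the same transform tested 14816 genes. It gave SOX9 and PROM1 the same changes and called both (limma adjusted p 0.0267 and 0.0373). The cause of the lost calls was not tested. Limma with a mean RPKM of at least 1 tested 7 of the marker genes and called 4. Of all 14816 genes it called 6269 with a pseudocount of 1 and 6227 with a pseudocount of 0.1. It called 6 crypt stem genes and 3 secretory genes with either pseudocount, on 14 and 6 genes tested. A required size of 1 or more on the log2 scale kept 3 marker genes (LGR5, SMOC2 and MSI1), 0 crypt stem genes (10 at an adjusted p under 0.05 alone), 3 cancer stem cell markers, 1 paralog or ligand and 1627 genes in all. With 1 library left out the counts ran from 5 to 11 for crypt stem genes, from 5 to 6 for cancer stem cell markers, from 4 to 5 for paralogs and ligands, from 3 to 4 for enterocyte markers, from 7 to 9 for secretory markers and from 6268 to 8433 for all genes. KRT8, never called, ran from -0.15 to 0.11 and changed sign without shCtrl replicate 2 (0.037), shCtrl replicate 3 (0.031) or shMORC2 replicate 1 (0.11). VWF was called in 6 of 12 alternatives. No splicing event of a marker gene was listed, so thresholds on the adjusted p or on reads had nothing to act on. Whether these genes had enough junction reads to be listed was not tested. Depth limits MSI1 in shCtrl and OLFM4 most.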
